A study of Saccharomyces cerevisiae with 24 samples.

Results

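Cells of about 65 fL were compared with cells of about 45 fL in an RNA-seq series of diploid budding yeast ordered by cell size. The comparison rests on 6 of the 24 libraries, 3 of each size, and covers all genes: 6402 of the 7032 features in the count table had enough reads to be tested. Libraries were chosen by the cell size in their labels, 64.5, 65.0 and 65.7 fL for the larger cells and 44.4, 43.0 and 43.3 fL for the smaller ones, and by no measured RNA. The strain was BY4743, a wild-type laboratory diploid, grown in the rich glucose medium YPD at 30 °C. Small G1 cells were collected by centrifugal elutriation, which separates cells by size, and were left to grow until the wanted size was reached. They were then stopped with cycloheximide and sodium azide, frozen and pooled with other cultures of like size, and total RNA depleted of rRNA was sequenced. Both groups therefore share strain, medium, elutriation and drug treatment, and size cannot be told apart from time in culture. Neither group contains the 40 fL pools, the smallest of the series and those closest to elutriation.

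A budding yeast cell grows in G1 until it passes Start, the point of commitment to division. The factors SBF and MBF then switch on the G1/S genes, which encode G1 and S-phase cyclins and the replication machinery. Histone genes follow in S phase, the CLB2 cluster is switched on in G2 and M by Fkh2, Mcm1 and Ndd1, and factors including Swi5 drive genes of cell separation between M and the next G1. Ribosome synthesis draws on a pair of large gene groups, the ribosomal proteins and the ribosome biogenesis factors, which usually move together with growth rate.

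Abundance is given in CPM, reads of a gene relative to its library's total after TMM scaling, and means are given ± SD (n = 3 libraries). Changes are log2 differences, 65 fL minus 45 fL, with a standard error (SE), from edgeR's quasi-likelihood test, and a gene was called at a Benjamini-Hochberg adjusted p under 0.05. Total counts ran from 17840915 to 18599164 in the 65 fL libraries and from 16789983 to 20534042 in the 45 fL libraries. URA3 and LEU2, deleted in BY4743, had 0 counts in all 6, which allows at most 0.179 CPM at the lowest depth (3 counts, counting error only). HIS3, also looked at, was not at 0: it had 530, 681 and 604 counts in the 65 fL libraries and 528, 504 and 407 in the 45 fL libraries. The 65 fL libraries lay closer to each other than the 45 fL libraries did, with root mean square log2 distances between pairs of 0.242 to 0.300 against 0.371 to 0.582. Replicate 3 of 45 fL stood farthest from its group, at 0.582 from replicate 1 and 0.496 from replicate 2, and results that turn on it are given without it. The labels call the 3 pools of a size biological replicates.

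In all, 2592 genes (40.5% of those tested) were called, 1164 higher (18.2%) and 1428 lower (22.3%) at 65 fL. The change was at least 2-fold for 193 of the higher genes (3.01%) and 404 of the lower ones (6.31%). The 3 libraries of one size did not overlap those of the other for 3693 genes (57.7%). The median of all genes tested was -0.06. On deposited TPM with a pseudocount of 1, limma called 826 higher and 1791 lower, with a median of -0.17, so the balance of rises and falls depends on the scaling. Without 45 fL replicate 3 the calls fell to 766 higher and 842 lower. Of 58 gene lists, 13 had more than 50% of their tested members called in a single direction. For 12 of these the direction was higher at 65 fL: mitosis, cytokinesis, spindle, checkpoint, histone, cell cycle factor, ribosomal protein, purine and proton pump genes. The other one, ribosome biogenesis, was lower. Without 45 fL replicate 3 the number of such lists was 7, against 13. List counts below stand against the 18.2% of all genes called higher and the 22.3% called lower.

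**Figure D1:**
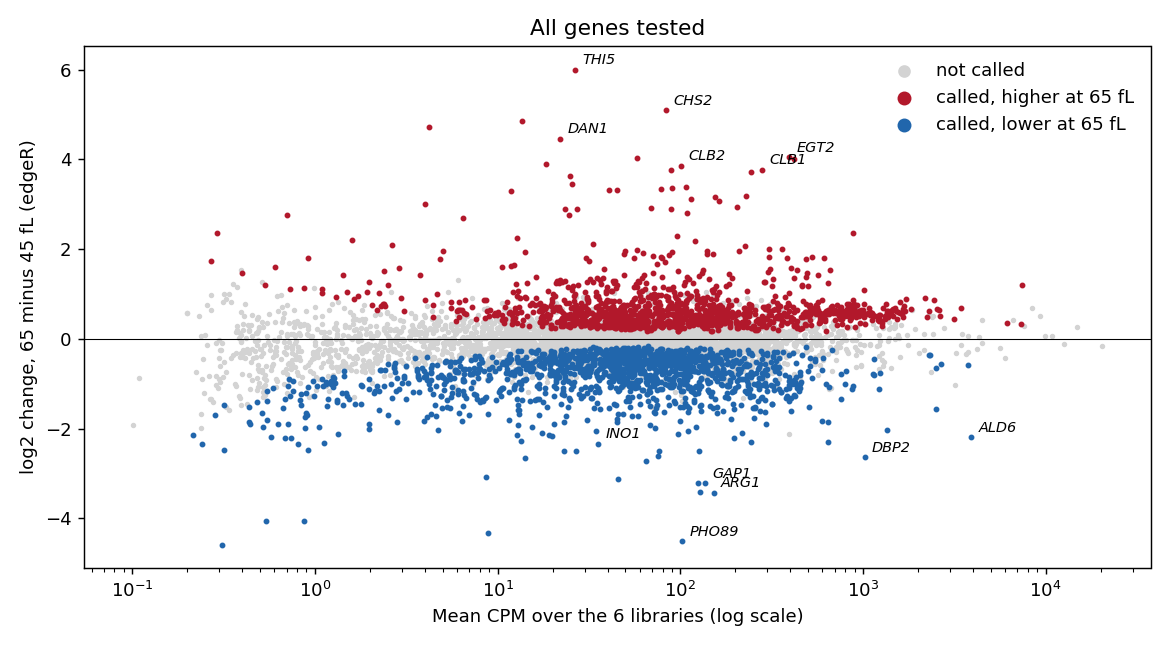
Log2 change between 65 and 45 fL (vertical axis, 65 minus 45) against mean CPM over the 6 libraries (horizontal axis, log scale) for the 6402 genes tested, each point 1 gene. Red points are the 1164 genes called higher and blue points the 1428 called lower at 65 fL, with CHS2 at 5.10 and PHO89 at -4.51 among the labelled genes farthest from 0.

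The mitotic genes of the CLB2 cluster showed the clearest rise. Of 38 members tested, 32 were called higher and 1 lower, with a median log2 change of 1.90, against -0.06 over all genes, and 26 rose at least 2-fold. CLB1 and CLB2, the mitotic B-type cyclins, led the cluster together with the cytokinesis genes. CLB2 had 189.9, 189.6 and 189 CPM in the 65 fL libraries, against 9.46, 18.9 and 10.8 CPM in the 45 fL libraries. No library of one size reached the range of the other, and the 3 libraries of 65 fL were within 1 CPM of each other (log2 change 3.86, SE 0.52, adjusted p = 4.34e-05). CLB1 had 544, 486 and 545 CPM in the 65 fL libraries, against 19.7, 65.3 and 30.9 CPM in the 45 fL libraries (log2 change 3.77, SE 0.66, adjusted p = 0.000408). Every 65 fL library was far above every 45 fL library, of which replicate 2 was the highest. The B-type cyclins outside the cluster moved less: CLB4 rose by 1.04 (SE 0.25, adjusted p = 0.00342) and CLB3 by 0.44 (SE 0.12, adjusted p = 0.00746). Leaving out 45 fL replicate 3 gave the same counts for the cluster, 32 higher and 1 lower.

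Regulators of mitotic progression rose with the cyclins. CDC20, the activator of the anaphase-promoting complex that starts anaphase, had 79.4, 74.5 and 90.4 CPM in the 65 fL libraries, against 6.73, 12.5 and 5.39 CPM in the 45 fL libraries (log2 change 3.31, SE 0.38, adjusted p = 1.11e-05). CDC5, the polo kinase, averaged 281 ± 5.77 CPM at 65 fL and 31.1 ± 12.0 CPM at 45 fL (log2 change 3.17, SE 0.37, adjusted p = 1.3e-05). SWI5, whose product enters the nucleus at mitotic exit to activate early G1 genes, averaged 196 ± 3.28 CPM at 65 fL and 18.8 ± 6.49 CPM at 45 fL (log2 change 3.39, SE 0.51, adjusted p = 0.000122). For all 3 genes the groups did not overlap. KIN3, a mitotic NIMA-type kinase, rose by 3.31 (SE 0.30) and HST3, a histone deacetylase, by 3.33 (SE 0.38). Of the activators of the cluster, FKH1 rose by 1.25 (SE 0.30), FKH2 by 0.90 (SE 0.16) and NDD1 by 1.19 (SE 0.26). MCM1 averaged 119 ± 14.3 CPM at 65 fL and 152 ± 19.8 CPM at 45 fL and was not called (adjusted p = 0.0602).

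The exception in the cluster was PMA2, the minor isoform of the plasma membrane proton pump. It had 199, 224 and 174 CPM in the 65 fL libraries, against 728, 787 and 308 CPM in the 45 fL libraries (log2 change -1.61, SE 0.39, adjusted p = 0.0039). All 3 libraries of 65 fL were below those of 45 fL, although 45 fL replicate 3 was lower than the other 2 of its size. PMA1, the main isoform and also a member, averaged 10314 ± 695 CPM at 65 fL and 4467 ± 282 CPM at 45 fL and rose by 1.21 (SE 0.17, adjusted p = 6.69e-05). Across the 8 sizes PMA2 was highest at 50 fL, with a mean of 762 CPM, and lowest at 40 fL, with 63.3 CPM.

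Promoters of the cluster were read from the R64 genome in windows from 500 to 101 bases before the coding start. The forkhead motif GTAAACA stood on either strand in 14 of 38 windows of the cluster (36.8%), against 474 of 5809 windows of all tested genes that had one (8.16%). It stood in 25.8% of the windows of genes called at least 2-fold higher and in 5.95% of those at least 2-fold lower. A match is a description of letters and not of a bound site. The stretches of 2 cluster genes are shown as examples of the motif in members that rose. They are MYO1, the myosin of the contractile ring (chrVIII:151460-151536, plus strand), and SPO12, a regulator of mitotic exit (chrVIII:401173-401249, plus strand), written 5′ to 3′ along the gene with the motif in capitals.
MYO1: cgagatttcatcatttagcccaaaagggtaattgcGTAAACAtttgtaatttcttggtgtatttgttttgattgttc
SPO12: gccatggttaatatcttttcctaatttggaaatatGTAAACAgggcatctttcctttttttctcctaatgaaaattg
MYO1 had 493, 455 and 513 CPM in the 65 fL libraries, against 119, 129 and 116 CPM in the 45 fL libraries (log2 change 2.00, SE 0.21, adjusted p = 4.46e-06). SPO12 averaged 47.8 ± 5.32 CPM at 65 fL and 6.40 ± 0.869 CPM at 45 fL (log2 change 2.90, SE 0.30, adjusted p = 4.57e-06). Neither gene's groups overlapped.

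**Figure D2:**
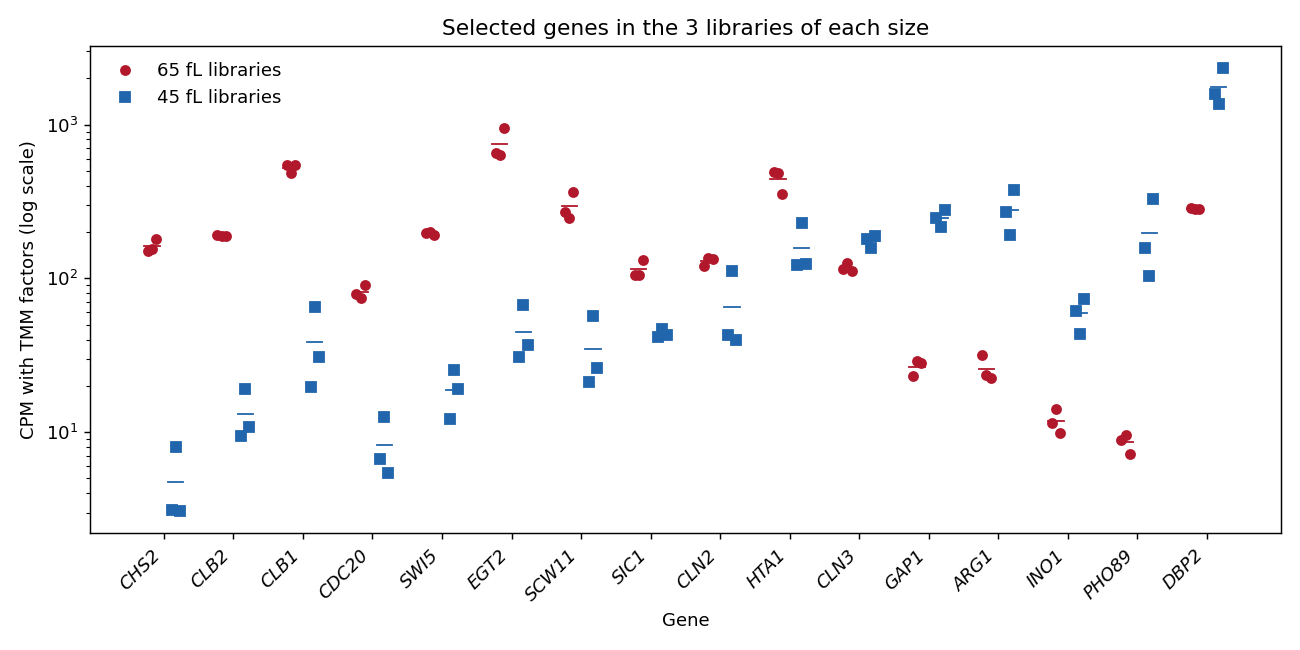
CPM with TMM factors (log scale) of 16 genes, with the 3 libraries of 65 fL (red circles) left of the 3 libraries of 45 fL (blue squares) and short lines at the group means. The mitotic genes on the left are far higher at 65 fL, as CHS2 with means of 162 and 4.74 CPM. CLN2 and HTA1 show 45 fL replicate 2 above the other 2 libraries of its size, and the genes on the right are lower at 65 fL.

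Several cytokinesis and septum genes rose strongly. CHS2, the chitin synthase that lays down the primary septum, had 151, 154 and 181 CPM in the 65 fL libraries, against 3.12, 8.04 and 3.06 CPM in the 45 fL libraries (log2 change 5.10, SE 0.64, adjusted p = 3.01e-05). HOF1, an F-BAR protein of the bud neck, averaged 109 ± 5.72 CPM at 65 fL and 6.64 ± 1.78 CPM at 45 fL (log2 change 4.04, SE 0.52, adjusted p = 3.15e-05). IQG1, the IQGAP scaffold of the contractile ring, averaged 361 ± 30.0 CPM at 65 fL and 47.2 ± 11.4 CPM at 45 fL (log2 change 2.94, SE 0.31, adjusted p = 6.68e-06). For each of the 3, every 65 fL library was above every 45 fL library. Of 21 contractile ring and septum genes, 14 were called higher and 3 lower, with a median of 0.67, and 1 was called lower when 45 fL replicate 3, 65 fL replicate 1 or 65 fL replicate 2 was left out. The lower genes included CHS3 (-0.55), the chitin synthase of the bud scar ring and lateral wall. BUD4, a landmark protein for axial budding, rose by 3.18 (SE 0.46), and the septins CDC3, CDC10 and CDC11, which form the ring at the bud neck, were called higher at 1.06, 0.80 and 0.62. In the list of 16 septins and morphogenesis kinases, 5 were called higher, 1 lower and 10 were not called (median 0.29).

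The mitotic exit network and its anaphase partners had 16 of 23 members called higher and 2 lower, with a median of 0.81. TEM1, the GTPase at the head of the network, rose by 1.25 (SE 0.21), and the kinase DBF2 and its partner MOB1 by 1.36 (SE 0.17) and 0.85 (SE 0.10). AMN1, which switches the network off in daughter cells, rose by 2.30 (SE 0.35). The 2 lower genes were CDH1 at -0.48, the activator of the anaphase-promoting complex after anaphase, and CDC15 at -0.28, a kinase of the network, which lost its call with the 6 libraries alone (adjusted p = 0.0696). CDC14, the phosphatase the network releases, averaged 114 ± 4.26 CPM at 65 fL and 98.5 ± 11.3 CPM at 45 fL and was not called (adjusted p = 0.105). The subunits of the anaphase-promoting complex itself went both ways, with 4 of 13 higher and 4 lower, and 1 and 4 without 45 fL replicate 3 or 65 fL replicate 3. They were 2 and 5 without 65 fL replicate 1 and 2 and 4 without 65 fL replicate 2. NUF2, an outer kinetochore subunit, rose by 1.55 (SE 0.23), ASE1, the spindle midzone bundler, by 1.93 (SE 0.26), and TUB1, alpha-tubulin, by 1.27 (SE 0.27). Of 35 kinetochore genes 20 were called higher and 3 lower (median 0.52), of 23 spindle motor and microtubule genes 15 and 3 (median 0.65), and of 20 tubulin and spindle pole genes 10 and 0 (median 0.64). These calls were 10 and 1, 9 and 1, and 5 and 0 without 45 fL replicate 3. The kinetochore counts were 12 and 3 and the spindle pole counts 6 and 0 without 45 fL replicate 1, and without 65 fL replicate 2 the kinetochore counts were 11 and 3. With 65 fL replicate 1 or 3 left out they were 14 and 1.

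Genes of cell separation and early G1, among them targets of Swi5 and Mcm1, were also higher at 65 fL. Of 30 tested, 20 were called higher and 6 lower, with a median of 1.28, and the counts were 18 and 3 without 45 fL replicate 3 and 17 and 3 without 65 fL replicate 3. EGT2, a cell wall protein of early G1, had 652, 638 and 950.1 CPM in the 65 fL libraries, against 30.9, 67.2 and 36.8 CPM in the 45 fL libraries (log2 change 4.05, SE 0.64, adjusted p = 0.000186). DSE4, a daughter-specific glucanase, averaged 453 ± 121 CPM at 65 fL and 34.3 ± 10.5 CPM at 45 fL (log2 change 3.72, SE 0.50, adjusted p = 4.94e-05). SCW11, a further glucanase-like daughter gene, averaged 293 ± 61.9 CPM at 65 fL and 34.8 ± 19.3 CPM at 45 fL (log2 change 3.08, SE 0.51, adjusted p = 0.000283). For these genes no 65 fL library fell within the 45 fL range, and 65 fL replicate 3 was the highest of its size each time. CTS1, the chitinase that frees the daughter, rose by 1.57 (SE 0.42), SIC1, the inhibitor of B-type cyclin kinases, by 1.38 (SE 0.15), ASH1, a repressor of mating type switching in daughters, by 1.53 (SE 0.25), and PCL9, a cyclin of early G1, by 2.11 (SE 0.36). DSE2, another daughter gene, rose by 1.19 (SE 0.38, adjusted p = 0.0192) but lost its call without 65 fL replicate 3 (log2 change 1.06, adjusted p = 0.0644), and also without 45 fL replicate 1 (log2 change 0.94, adjusted p = 0.0762) or 45 fL replicate 3 (log2 change 1.16, adjusted p = 0.0619). The 6 lower genes included PIR3 (-1.92), a cell wall protein, and CLN3 (-0.58), a G1 cyclin.

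The Swi5 motif ACCAGC stood on either strand in 11 of 30 windows of this list (36.7%), against 11.2% of all windows. PIR1, a cell wall mannoprotein, is shown because it had the smallest adjusted p among the list members with the motif. Its stretch lies at chrXI:142988-143063 on the minus strand, and the capitals mark the motif read on its other strand.
PIR1: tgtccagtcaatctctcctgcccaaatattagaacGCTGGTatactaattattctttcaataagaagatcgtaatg
PIR1 had 746, 677 and 948 CPM in the 65 fL libraries, against 53.7, 50.2 and 44.3 CPM in the 45 fL libraries (log2 change 4.00, SE 0.56, adjusted p = 6.54e-05), with no overlap between groups. Of the 31-base words of PIR1, 24.7% occur more than once in the genome, so part of its reads may be shared with copies, and PIR3, a relative with 21.0%, moved the other way, averaging 28.7 ± 7.86 CPM at 65 fL and 108 ± 41.3 CPM at 45 fL.

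The G1/S regulon, switched on at Start, had no member called lower at 65 fL. Of 37 members of the G1/S regulon, 12 were called higher and 0 lower, with a median of 0.84. These were YHP1 (1.98) and NRM1 (1.80), which encode repressors of cell cycle genes, and 10 others. The classical markers were not called. CLN2, a G1 cyclin, had 121, 135 and 135 CPM in the 65 fL libraries, against 43.0, 111 and 39.8 CPM in the 45 fL libraries (log2 change 1.01, SE 0.43, adjusted p = 0.0705). CLN1, its paralog, averaged 201 ± 21.9 CPM at 65 fL and 101 ± 55.3 CPM at 45 fL (log2 change 0.99, SE 0.42, adjusted p = 0.0645). RNR1, the large subunit of ribonucleotide reductase, averaged 1125 ± 19.1 CPM at 65 fL and 725 ± 437 CPM at 45 fL (log2 change 0.63, SE 0.45, adjusted p = 0.265). For CLN2 and CLN1 all 65 fL libraries were above all 45 fL libraries, of which replicate 2 came close, and for RNR1 replicate 2 of 45 fL was the highest of the 6.

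Replicate 2 of 45 fL stood apart across the regulon. On the scale of mean log2 CPM over the list, relative to the 45 fL mean, the 65 fL libraries were at 0.88, 0.97 and 0.91 and the 45 fL libraries at -0.26, 0.64 and -0.38. Without that library 28 members were called higher and 0 lower, and without 45 fL replicate 3 it was 8 and 0. DESeq2 on the 6402 genes called 19 higher and 0 lower. Relative to 45 fL, the mean of the list was lowest at 40 fL, at -1.88, and highest at 60 fL, at 1.58. The 45 fL pools thus already lay above those of 40 fL, and both sizes compared here lay off the peak. These lists were used to check a reading of the 45 fL pools as late G1 cells and of the 65 fL pools as mitotic ones. The mitotic genes were high at 65 fL, but no G1/S gene was called higher at 45 fL, so the groups are named here by size.

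Upstream regulators of Start moved in both directions. CLN3, the G1 cyclin that initiates Start, had 114, 125 and 112 CPM in the 65 fL libraries, against 181, 157 and 188 CPM in the 45 fL libraries (log2 change -0.58, SE 0.17, adjusted p = 0.0123). BCK2, which promotes Start independently of Cln3, averaged 129 ± 6.87 CPM at 65 fL and 161 ± 0.964 CPM at 45 fL (log2 change -0.32, SE 0.07, adjusted p = 0.00201), and lost its call with the 6 libraries alone (adjusted p = 0.0523). Both genes were lower in every 65 fL library than in any 45 fL library. WHI5, the inhibitor of SBF, averaged 19.2 ± 1.89 CPM at 65 fL and 13.8 ± 2.81 CPM at 45 fL and was not called (adjusted p = 0.0699). SWI4, the DNA-binding subunit of SBF, averaged 177 ± 20.7 CPM at 65 fL and 124 ± 56.5 CPM at 45 fL and was not called (adjusted p = 0.164). SWI6, shared by SBF and MBF, rose by 0.57 (SE 0.12), and MBP1, the DNA-binding subunit of MBF, by 0.43 (SE 0.11). FAR1, an inhibitor of G1 cyclin kinases, rose by 1.20 (SE 0.27). In the list of 22 Start regulators 6 were called higher and 4 lower.

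The MBF motif ACGCGT stood in 10 of 37 windows of the G1/S regulon (27.0%) and in 22 of 43 windows of replication fork genes (51.2%), against 4.91% of all windows. It is palindromic, so both strands give the same matches. The SBF motif CNCGAAA, with N for any base, stood in 27 of 37 G1/S windows (73.0%), against 19.2% of all windows. In replication fork genes it stood in 12 of 43 (27.9%). Shown are CRH1, a chitin transglycosylase of the cell wall (chrVII:878571-878646, minus strand), and RFC4 (chrXV:142656-142726, minus strand). RFC4 is a subunit of the clamp loader for the replication sliding clamp. Each had the smallest adjusted p among the members of its list with the MBF motif, which is in capitals. The pair moved in opposite directions.
CRH1: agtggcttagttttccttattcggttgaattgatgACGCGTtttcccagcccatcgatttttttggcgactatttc
RFC4: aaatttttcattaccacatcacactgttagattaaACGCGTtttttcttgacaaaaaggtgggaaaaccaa
CRH1 had 433, 445 and 510.0 CPM in the 65 fL libraries, against 109, 259 and 106 CPM in the 45 fL libraries (log2 change 1.55, SE 0.43, adjusted p = 0.00973). RFC4 had 38.2, 40.9 and 37.4 CPM in the 65 fL libraries, against 52.2, 50.4 and 53.7 CPM in the 45 fL libraries (log2 change -0.42, SE 0.10, adjusted p = 0.00267). Neither gene's groups overlapped. Among the 45 fL libraries CRH1 was highest in replicate 2, and its call was lost without replicate 3 of that size (log2 change 1.33, adjusted p = 0.0544).

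Few replication genes were called. Of 43 replication fork genes 4 were called higher and 6 lower, with a median of 0.27. The higher ones included RFC1 (0.44), the large subunit of the clamp loader to which RFC4 belongs. The lower ones included DPB11 (-0.73), which helps to load the replicative polymerases, SLD5 (-0.70), a subunit of the GINS complex, and RFC4 (-0.42). Without 45 fL replicate 2 the counts were 12 and 5, and without any one of the other 5 libraries they were 1 or 2 higher and 3 to 7 lower. On library totals without factors they were 2 and 9. POL1, the catalytic subunit of DNA polymerase alpha, averaged 240.0 ± 23.9 CPM at 65 fL and 194 ± 60.7 CPM at 45 fL and was not called (adjusted p = 0.398). CDC6, which loads the replicative helicase at origins and is made from late M, rose by 1.36 (SE 0.23).

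Of 11 histone genes 10 were called higher, with a median of 1.54. HTB1, encoding H2B, had 672, 724 and 544 CPM in the 65 fL libraries, against 166, 342 and 162 CPM in the 45 fL libraries (log2 change 1.53, SE 0.33, adjusted p = 0.00173). HHF1, encoding H4, averaged 824 ± 94.6 CPM at 65 fL and 231 ± 133 CPM at 45 fL (log2 change 1.83, SE 0.43, adjusted p = 0.00312). HTA1, encoding H2A, averaged 444 ± 76.2 CPM at 65 fL and 158 ± 60.4 CPM at 45 fL (log2 change 1.49, SE 0.33, adjusted p = 0.00227). All 65 fL libraries were above all 45 fL libraries for these genes, and 45 fL replicate 2 was the highest of its size for each. Of the 11, 8 were called without 45 fL replicate 3. Histone genes have near-identical partners, and 40.8% of the 31-base words of HHF1 and 12.5% of those of HTA1 are repeated, so reads may be split between copies. CSE4, the centromeric H3 variant, was the one not called, averaging 40.1 ± 0.957 CPM at 65 fL and 38.1 ± 5.82 CPM at 45 fL (adjusted p = 0.678).

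**Figure D3:**
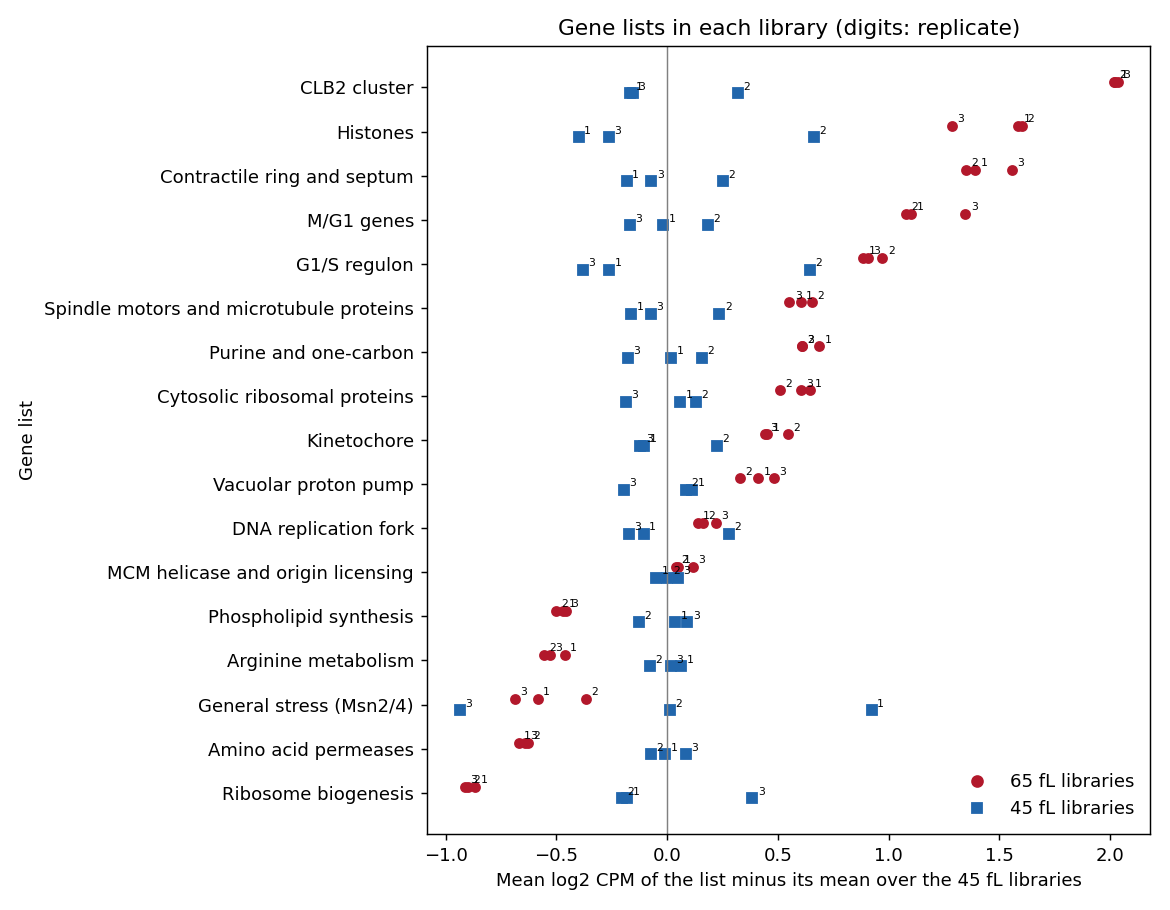
Mean log2 CPM of 17 gene lists in each library, relative to the mean over the 45 fL libraries, with 65 fL libraries as red circles above 45 fL libraries as blue squares, and digits for the replicate. The 65 fL libraries of the CLB2 cluster sit at 2.02 to 2.03 and its 45 fL libraries at -0.17 to 0.32. The general stress list has 45 fL libraries from -0.94 to 0.92, around all 3 of 65 fL.

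The pair of ribosome gene groups moved in opposite directions. Of 138 cytosolic ribosomal protein genes, 127 were called higher and 0 lower, with a median log2 change of 0.58, and 1 rose at least 2-fold. RPL31B, a large subunit protein, had 485, 473 and 516 CPM in the 65 fL libraries, against 248, 301 and 219 CPM in the 45 fL libraries (log2 change 0.94, SE 0.16, adjusted p = 0.000282). The 3 libraries of each size did not overlap for 134 of the 138, against 57.7% of all genes. The largest rise in the list was that of RPL22B, the minor copy of a large subunit protein, at 1.12 (SE 0.17).

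Ribosome biogenesis factors process and assemble rRNA in the nucleolus and nucleus. Of 122 genes, 83 were called lower and 0 higher, with a median of -0.92. The groups did not overlap for any of the 122, against 57.7% of all genes without overlap. DBP2, an RNA helicase, had 287, 283 and 283 CPM in the 65 fL libraries, against 1590.5, 1365 and 2327 CPM in the 45 fL libraries (log2 change -2.63, SE 0.68, adjusted p = 0.00607). RRP15, needed for large subunit assembly, averaged 27.7 ± 0.776 CPM at 65 fL and 72.7 ± 18.1 CPM at 45 fL (log2 change -1.39, SE 0.36, adjusted p = 0.0056). For both genes 45 fL replicate 3 was the highest library, and the 65 fL libraries lay close together.

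The number of biogenesis genes called moved strongly with single libraries. Only 2 genes were called without 45 fL replicate 3, with a median of -0.69. Without 65 fL replicate 1, 2 or 3, the calls were 10, 12 and 11, while the medians were -0.932, -0.918 and -0.925. Without 45 fL replicate 1 or 2, 79 and 81 genes were called lower, with medians of -1.018 and -1.032. In a fit to the 6 libraries alone 111 were called lower and 0 higher. As mean log2 CPM over the list, the 65 fL libraries were at -0.87, -0.90 and -0.91 and the 45 fL libraries at -0.18, -0.20 and 0.39. Across sizes the list did not move steadily: relative to 45 fL it was at 0.21 at 40 fL, -1.16 at 50 fL, -0.54 at 55 fL, -1.42 at 60 fL and -0.89 at 65 fL. Subunits of RNA polymerases I and III and their factors had 6 of 21 called lower and 0 higher (median -0.58), and 0 of 21 without 45 fL replicate 3. Without 65 fL replicate 1, 2 or 3 the count was 2, 1 and 1.

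In the promoter windows of the biogenesis list the PAC motif GATGAG stood in 83 of 122 (68.0%), against 23.1% of all windows, and the RRPE motif AAAATTTT, which is palindromic, in 86 (70.5%), against 10.6%. Among genes at least 2-fold lower the shares were 32.0% and 21.5%. RRP15 has both, and had the smallest adjusted p among the list members with either motif. It is shown in a pair of stretches on the plus strand at chrXVI:818066-818141 and chrXVI:818169-818222. PAC is in capitals as read on its other strand.
RRP15 PAC: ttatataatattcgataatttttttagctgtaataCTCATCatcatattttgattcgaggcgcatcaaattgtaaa
RRP15 RRPE: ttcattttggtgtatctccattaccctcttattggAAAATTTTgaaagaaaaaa
RRP15 had 27.4, 28.6 and 27.1 CPM in the 65 fL libraries, against 60.3, 64.2 and 93.5 CPM in the 45 fL libraries, with every 65 fL library below the 45 fL range.

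**Figure D4:**
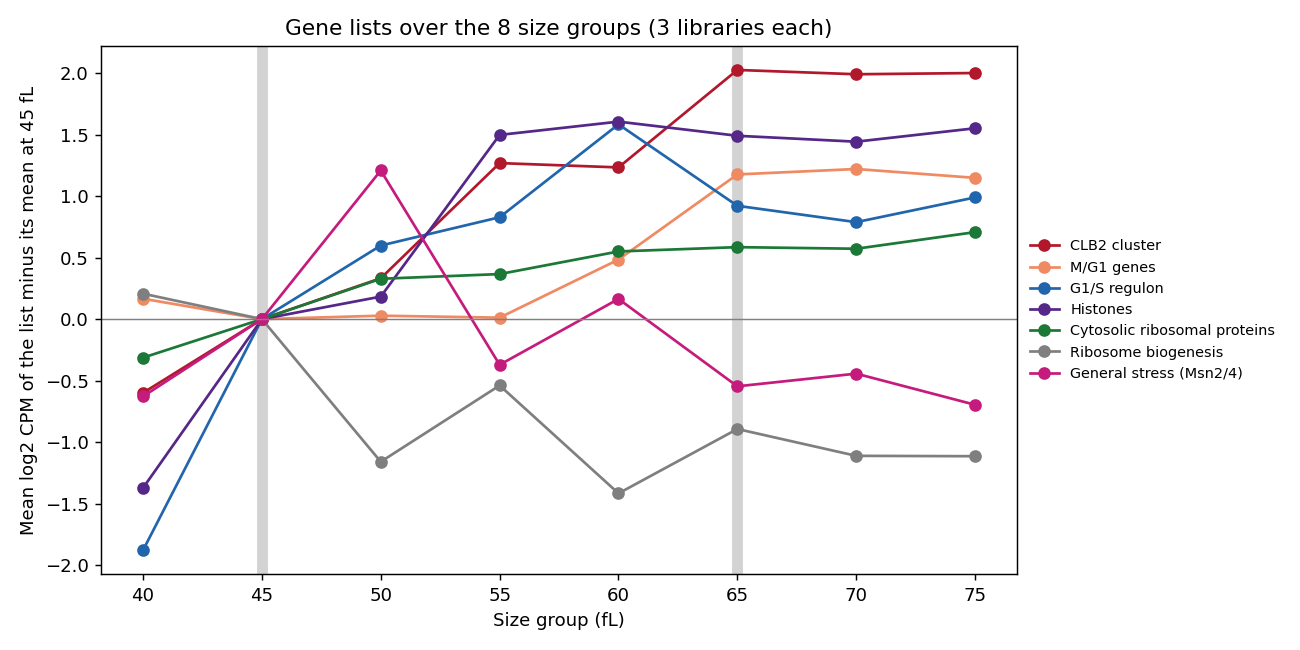
Mean log2 CPM of 7 gene lists at each of the 8 sizes, relative to 45 fL, with 3 libraries per point and grey bands at the 2 sizes compared. The CLB2 cluster reaches 2.02 at 65 fL and the G1/S regulon 1.58 at 60 fL, while ribosome biogenesis and general stress alternate between neighbouring sizes.

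Nutrient transport and amino acid genes supplied several of the largest falls. GAP1, the general amino acid permease, had 23.2, 28.9 and 27.9 CPM in the 65 fL libraries, against 248, 215 and 279 CPM in the 45 fL libraries (log2 change -3.21, SE 0.29, adjusted p = 1.11e-06). PUT4, the proline permease, averaged 8.06 ± 1.14 CPM at 65 fL and 45.5 ± 5.62 CPM at 45 fL (log2 change -2.50, SE 0.27, adjusted p = 7.32e-06). ARG1, argininosuccinate synthetase, had 31.6, 23.6 and 22.5 CPM in the 65 fL libraries, against 270.0, 191 and 375 CPM in the 45 fL libraries (log2 change -3.43, SE 0.57, adjusted p = 0.000289). All 3 genes were lower in every 65 fL library. Of 26 amino acid and ammonium permeases, 13 were called lower and 1 higher, BAP3 (0.61), with a median of -0.54. Of 17 arginine genes 7 were lower, including CPA1 (-2.30) and ARG3 (-2.28), and 1 was higher, ARG2 (0.46). The call of ARG2 was lost without 45 fL replicate 3 (log2 change 0.39, adjusted p = 0.0733) or 65 fL replicate 3 (log2 change 0.39, adjusted p = 0.0641). It was also lost by limma on deposited TPM plus 1 (log2 change 0.30, adjusted p = 0.0624) and plus 0.1 (log2 change 0.32, adjusted p = 0.063).

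Phosphate and iron genes were also among those called lower. PHO89, a sodium-phosphate cotransporter, had the largest fall of the named genes, with 8.89, 9.57 and 7.26 CPM in the 65 fL libraries, against 158, 103 and 327 CPM in the 45 fL libraries (log2 change -4.51, SE 0.90, adjusted p = 0.00111). Its groups did not overlap, and 45 fL replicate 3 was the highest library. Over all genes tested 22.3% were called lower, and 842 of 6434 without 45 fL replicate 3. Of 27 phosphate genes 9 were called lower and 2 higher, and 5 and 1 without 45 fL replicate 3. They were 6 and 1 without 65 fL replicate 1, 2 or 3, and 10 and 1 without 45 fL replicate 2. Of 29 iron genes 14 were called lower and 2 higher (median -0.32), and 11 and 1 without 45 fL replicate 3, with HMX1, a heme oxygenase, at -1.68. NCE103, carbonic anhydrase, averaged 22.0 ± 1.79 CPM at 65 fL and 233 ± 95.0 CPM at 45 fL (log2 change -3.41, SE 0.63, adjusted p = 0.000625).

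Several phospholipid synthesis genes under inositol control fell. INO1, inositol-3-phosphate synthase, had 11.5, 14.0 and 9.89 CPM in the 65 fL libraries, against 61.4, 43.5 and 73.8 CPM in the 45 fL libraries (log2 change -2.33, SE 0.32, adjusted p = 5.01e-05). OPI3, a phospholipid methyltransferase, averaged 29.1 ± 2.73 CPM at 65 fL and 116 ± 40.0 CPM at 45 fL (log2 change -1.99, SE 0.19, adjusted p = 2.43e-06), and CHO1, phosphatidylserine synthase, averaged 84.8 ± 5.05 CPM at 65 fL and 292 ± 74.5 CPM at 45 fL (log2 change -1.78, SE 0.30, adjusted p = 0.000286). In all 3 the 65 fL libraries lay below the 45 fL range. ITR1, the inositol transporter, and INO2, an activator of the pathway, were called lower at -2.04 and -1.67, as was the repressor OPI1 at -1.37. Of 30 phospholipid genes 14 were lower and 3 higher (median -0.28). The higher ones were SLC1 (0.70), INM1 (0.59) and EKI1 (0.38). EKI1 lost its call on deposited TPM plus 1 (log2 change 0.24, adjusted p = 0.0936 by limma) and in edgeR on the 6 libraries alone (log2 change 0.41, adjusted p = 0.0526).

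Single carbon metabolism genes moved both ways. PCK1, the gluconeogenic PEP carboxykinase, averaged 22.8 ± 4.97 CPM at 65 fL and 129.7 ± 14.1 CPM at 45 fL (log2 change -2.51, SE 0.37, adjusted p = 0.000118). ALD6, cytosolic acetaldehyde dehydrogenase, had 1411, 1714 and 1085 CPM in the 65 fL libraries, against 5947, 4761 and 8531 CPM in the 45 fL libraries (log2 change -2.19, SE 0.63, adjusted p = 0.0113), and ALD4, its mitochondrial relative, fell by 2.29 (SE 0.64). HXK2, the main hexokinase in glucose, averaged 706 ± 73.8 CPM at 65 fL and 271 ± 34.5 CPM at 45 fL (log2 change 1.38, SE 0.16, adjusted p = 1.68e-05). Of 28 gluconeogenic and glucose-repressed genes 13 were lower and 3 higher, among them SUC2, invertase, at 1.73. Of 24 glycolysis and fermentation genes 4 were higher and 0 lower. The share called higher is close to the 18.2% of all genes and is not read as a rise of the list. The higher ones included HXK2, PFK1 (0.73), a subunit of phosphofructokinase, and ADH3 (0.74), mitochondrial alcohol dehydrogenase. The high-affinity hexose transporter HXT4 rose by 1.72 (SE 0.34).

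Among purine and one-carbon genes 13 of 24 were called higher and 0 lower (median 0.36). The higher count was 9, no longer more than 50%, without 45 fL replicate 3, 65 fL replicate 1 or 65 fL replicate 2. It was 11 without 45 fL replicate 1 or 65 fL replicate 3. GCV2, a subunit of glycine decarboxylase, had 207, 215 and 169 CPM in the 65 fL libraries, against 51.1, 57.4 and 22.0 CPM in the 45 fL libraries (log2 change 2.18, SE 0.39, adjusted p = 0.000455). ADE17, which completes IMP synthesis, averaged 760.5 ± 58.2 CPM at 65 fL and 219.8 ± 103 CPM at 45 fL (log2 change 1.79, SE 0.47, adjusted p = 0.00633). The groups did not overlap, and 45 fL replicate 3 was the lowest library for both. Of 19 vacuolar proton pump genes 13 were called higher and 0 lower (median 0.43), all by less than 2-fold, with VPH1, a membrane subunit, at 0.77. The proton pump count was 8 when 45 fL replicate 3, 65 fL replicate 1 or 65 fL replicate 3 was left out.

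General stress genes varied strongly among the 45 fL libraries. Of 44 Msn2 and Msn4 targets 10 were called lower and 0 higher, with a median of -0.61. The share called lower is close to the 22.3% of all genes and is not read as a change of the list. HSP12, a membrane-associated heat shock protein, had 1174, 1414 and 1217 CPM in the 65 fL libraries, against 6887, 3172 and 1212 CPM in the 45 fL libraries (log2 change -1.57, SE 0.56, adjusted p = 0.033). Its groups overlapped, since 45 fL replicate 3 lay among the 65 fL libraries. Its call was lost without 45 fL replicate 1 (log2 change -0.79, adjusted p = 0.254) and without 65 fL replicate 1, 2 or 3 (adjusted p = 0.0908, 0.0669 and 0.0871). XBP1, a stress-induced repressor of cyclin genes, had 42.3, 61.2 and 26.0 CPM in the 65 fL libraries, against 211, 134 and 191 CPM in the 45 fL libraries (log2 change -2.05, SE 0.49, adjusted p = 0.00347), and its groups did not overlap. The list mean was at 0.92, 0.01 and -0.94 in the 45 fL libraries, and at -0.58, -0.37 and -0.69 in the 65 fL libraries. The number called was 18 without 45 fL replicate 3 and 2 without 45 fL replicate 1. Without 65 fL replicate 1, 2 or 3 it was 2, 4 and 3.

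Some anaerobic and thiamine genes varied strongly among the 65 fL libraries. DAN1, an anaerobic cell wall mannoprotein, had 99.4, 19.8 and 7.60 CPM in the 65 fL libraries, against 1.24, 2.30 and 2.23 CPM in the 45 fL libraries (log2 change 4.46, SE 0.95, adjusted p = 0.00168). No 45 fL library reached the 65 fL range, but the SD at 65 fL was larger than the mean. ANB1, the hypoxic form of translation factor eIF5A, and AAC3, the hypoxic ATP/ADP carrier, rose by 1.89 (SE 0.32) and 1.93 (SE 0.22). Of 26 anaerobic and oxygen-regulated genes 5 were higher and 5 lower, so the list did not move one way. The counts were 4 and 3 without 45 fL replicate 3 and 5 and 3 without 65 fL replicate 3. THI5 and THI12, near-identical thiamine synthesis genes, were called higher. THI5 averaged 52.5 ± 19.8 CPM at 65 fL and 0.824 ± 0.332 CPM at 45 fL, and THI12 averaged 26.2 ± 8.96 CPM at 65 fL and 0.889 ± 0.268 CPM at 45 fL. Of their 31-base words 91.8% and 80.8% are repeated, so the copies cannot be told apart here. In the thiamine list 4 of 21 genes were called higher and 7 lower, with a median of -0.65. The lower count was 1 without 45 fL replicate 3 or 65 fL replicate 1 and 0 without 65 fL replicate 2. THI73, a transporter regulated by thiamine, had 42.1, 15.8 and 153 CPM in the 65 fL libraries, against 300.2, 284 and 393 CPM in the 45 fL libraries (log2 change -2.21, SE 0.77, adjusted p = 0.0297). The groups did not overlap, although 65 fL replicate 3 was far above the other 2 of its size. Its call was lost without 45 fL replicate 3 (adjusted p = 0.0787), 65 fL replicate 1 (adjusted p = 0.104) or 65 fL replicate 2 (adjusted p = 0.0994).

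Genes that mark haploid and sporulating cells were counted in the same way. Calls between sizes of the same strain cannot check the diploid label, and none is drawn from them. Of 22 haploid-specific genes 10 were called lower and 1 higher, FAR1, which is also a cell cycle gene, and 6 lower and 1 higher without 45 fL replicate 3. FUS3, the mating MAP kinase, averaged 1.85 ± 0.260 CPM at 65 fL and 7.59 ± 1.41 CPM at 45 fL, and MFA1, encoding a-factor, 1.21 ± 0.557 CPM at 65 fL and 4.43 ± 0.707 CPM at 45 fL. Of 31 meiosis and sporulation genes 14 were called lower and 1 higher. The higher one, SPS4, averaged 34.5 ± 3.25 CPM at 65 fL and 2.33 ± 0.862 CPM at 45 fL (log2 change 3.90, SE 0.61, adjusted p = 0.000176). As mean log2 CPM over its members, relative to 45 fL, the haploid list was at -0.39, -0.33 and -0.49 in the 65 fL libraries and from -0.03 to 0.02 in the 45 fL libraries. In such bulk RNA, fewer cells of a type and less RNA per cell cannot be told apart, and a mix of cell cycle stages within a pool gives intermediate values.

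The change from 45 to 65 fL was then set beside that between the ends of the series, 75 minus 40 fL, which shares no library with it. In 75 minus 40 fL, 1985 genes were called higher (31.0%) and 1934 lower (30.2%). Of the 2592 genes called in 65 minus 45 fL, 2227 were called with the same sign there and 15 with the opposite sign. That is 85.9% of the 2592 calls and 56.8% of the 3919 calls in 75 minus 40 fL. For most of the called rises the highest of the size means was at 70 or 75 fL. Whether these sizes differ from 65 fL was not tested. Of the 1164, the highest of the 8 size means was at 75 fL for 420, at 70 fL for 310, at 65 fL for 201 and at 60 fL for 171. Of the 1428 falls, the highest mean was at 40 fL for 756 and at 45 fL for 475, and the lowest at 60 fL for 584.

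The 2 changes differed by their own test in 171 genes (2.67%), 30 higher (0.469%) and 141 lower (2.20%) in 65 minus 45 fL. On deposited TPM plus 1 the split was 75 and 47, so the direction of this set depends on the scaling. Of the gene lists, the G1/S regulon had the most members in the lower set, 18 of 37. Its medians were 0.84 in 65 minus 45 fL and 2.41 in 75 minus 40 fL. Glycolysis and fermentation had 8 of 24 members there, with medians of 0.42 and 1.61, and cell wall mannoproteins 8 of 34. TOS4, a G1/S gene for a forkhead-associated protein, had changes of 0.77 and 4.53 (difference -3.76, adjusted p = 0.00864). PCL1, a G1 cyclin, had changes of 0.84 and 4.71 (difference -3.87, adjusted p = 0.00544). CLN1 had changes of 0.99 and 4.58 (difference -3.59, adjusted p = 0.00544). Across sizes the mean of CLN1 was 9.11 CPM at 40 fL, 101 at 45 fL, 368 at 60 fL and 201 at 65 fL.

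In the CLB2 cluster 1 of 38 members was called in the test of the difference, CLB1, with changes of 3.77 and 7.20 (adjusted p = 0.0439). CDC20 had 3.31 and 3.08 (difference 0.23, adjusted p = 0.845). In the M/G1 list 1 of 30 was called. Both shares are near the 2.67% over all genes. In the higher set the haploid-specific list had the most members, 6 of 22, against 0.469% of all genes. Its medians were -0.376 in 65 minus 45 fL and -1.245 in 75 minus 40 fL. Also in the higher set, CIT2, the peroxisomal citrate synthase, had changes of -0.92 and -3.24 (adjusted p = 0.00544). Its call in 65 minus 45 fL was lost without 45 fL replicate 2 (log2 change -0.42, adjusted p = 0.172). It averaged 349.9 CPM at 40 fL and 89.6 CPM at 45 fL. ARG4, argininosuccinate lyase, had 0.46, not called, and -1.25 (adjusted p = 0.00864). The count of 171 ranged from 54 without 65 fL replicate 1 to 413 without 45 fL replicate 3.

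**Figure D5:**
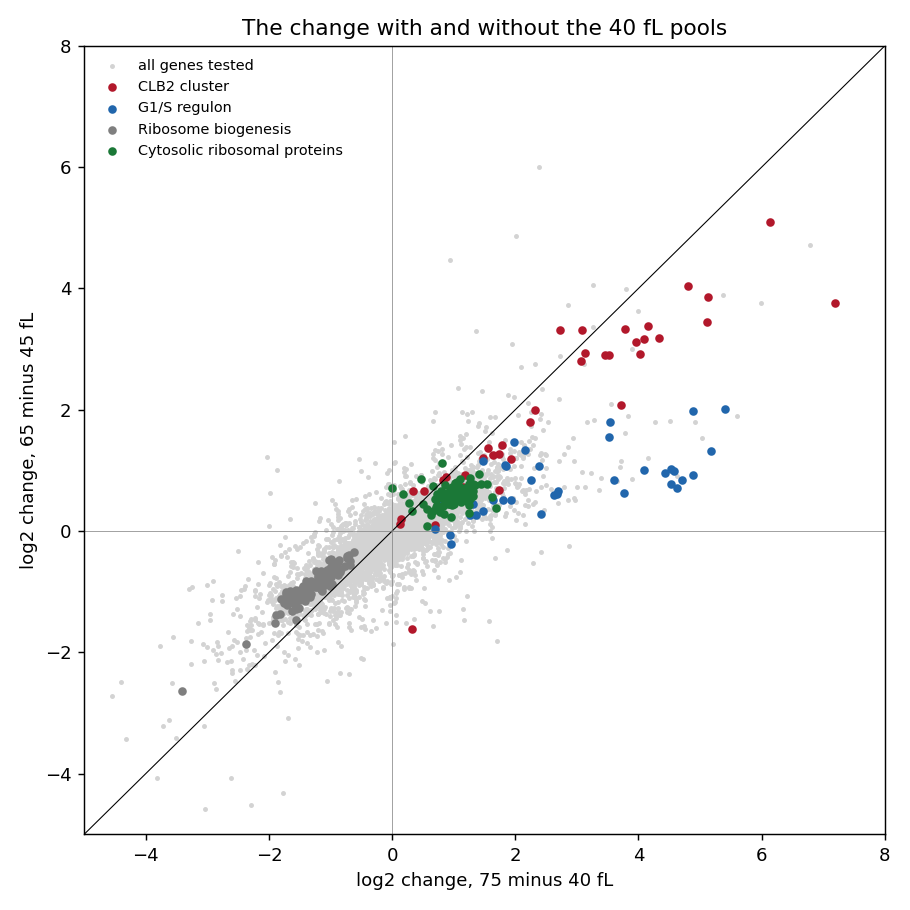
Log2 change in 65 minus 45 fL (vertical axis) against 75 minus 40 fL (horizontal axis) for the 6402 genes tested, in grey, with 4 lists in colour and the line of equal change. G1/S genes lie well below the line, with medians of 0.84 and 2.41, the CLB2 cluster is nearer to it, with 1.90 and 2.29, and ribosome biogenesis genes lie in the lower left.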

How the data were processed

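Counts are whole-number read counts per feature, deposited by the authors, who assigned reads to genome build R64 with featureCounts of Subread, per the submitters' processing notes. TPM values, scaled for feature length within each library, were deposited by the authors beside them. How reads were aligned, and the strand and multi-mapping settings, are not stated in the labels, which makes values of overlapping genes and near-identical copies uncertain. Libraries were grouped by labelled size to the nearest 5 fL, and replicates were numbered in record order. The labels put the 24 libraries on 2 lanes and name no batch by library.

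The test was edgeR's robust quasi-likelihood F test (version 4.0.16 in R 4.3.3) on all 24 libraries, after TMM scaling and filtering by filterByExpr, with a coefficient for each size. Contrasts were 65 minus 45 fL, 75 minus 40 fL and their difference, with Benjamini-Hochberg adjustment over 6402 genes and a threshold of 0.05. SE was taken as the size of the log2 change over the root of the F statistic. The script was tested on simulated data. Alternatives used DESeq2 (1.42.0), limma and limma-voom (3.58.1). Of the features, 957 could not be matched to the R64 annotation. Repeated sequence was measured by cutting each gene into 31-base words and counting those found more than once in the genome. Replicates were no copies of each other, with a chi-square per degree of freedom of at least 11.6.

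Some genes are not reported here. The comparison, the 58 gene lists and the tests were chosen with earlier results of these data known. Named genes were the 20 largest rises and 20 largest falls (mean of at least 10 CPM, groups not overlapping), landmark cell cycle genes, up to 4 members per list by adjusted p and those against a list's majority, 8 of each sign in the difference of changes, and genes whose promoter is shown. Outside this rule, ADE17, AMN1, DBF2, HIS4, HSP12, HXT5, INO2, ITR1, LYS20, MBP1, MCM1, MFA1, MOB1, OPI1, PMA1 and TEM1 were chosen after their values were seen.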

Additional observations from a re-analysis of the deposited data

How the results depend on the processing

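No paired analysis was possible because the labels carry no replicate numbers, and the numbers used here only name libraries. The 11 other fits and the 6 that leave out 1 library were run for 65 minus 45 fL. The total of 2592 calls stayed within 1.5-fold except without 45 fL replicate 3. Leaving out 1 library gave 1608 to 2629 calls, 766 to 1228 higher and 842 to 1401 lower, and 7 to 16 of the lists with more than 50% of members called, against 13. The difference of changes moved most. Against 171 calls (30 higher, 141 lower), DESeq2 gave 303 (72 and 231), library totals 113 (59 and 54) and upper quartile factors 99 (60 lower). TPM plus 0.1 gave 67 and 48, TPM plus 1 gave 75 and 47, and no low-count filter gave 89 lower. Leaving out 1 library gave 54 to 413 calls, 9 to 38 higher and 45 to 375 lower. The cause was not tested. Of 122 genes given with values, 103 kept direction and call under all these settings. Of the 110 called, 7 lost the call under a setting other than a left-out library, BCK2, CDC15, CIT2, HSP12 and THI73 among them with the 6 libraries alone. CSE4, not called, was at -0.052 on both TPM scales, and -0.049 to 0.139 with 1 library left out. Depth was similar in the 2 groups, and the 45 fL pools lay farther from each other than the 65 fL pools did. What limits precision was not tested.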

Other observations

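Amino acid synthesis genes went both ways. Of 56 tested, 20 were called higher and 11 lower at 65 fL, with a median of 0.10. HIS4, a histidine synthesis enzyme, averaged 722 ± 102 CPM at 65 fL and 260.4 ± 106 CPM at 45 fL (log2 change 1.47, SE 0.35, adjusted p = 0.00324). The lower ones included SER3, the first enzyme of serine synthesis, at -2.11 and LYS20, homocitrate synthase, at -1.52. Of 34 genes of the proteasome list 0 were called higher and 1 lower by edgeR (median -0.03), which was RPN4, the transcription factor that controls the subunits. RPN4 averaged 186 ± 6.60 CPM at 65 fL and 414 ± 89.3 CPM at 45 fL (log2 change -1.16, SE 0.24, adjusted p = 0.00164). Of 21 hexose transporter and sensor genes 6 were lower, among them HXT5 (-1.50), a transporter of slow growth, and 1, HXT4, was higher. Over all genes 22.3% were called lower. The call of HXT5 was lost without 45 fL replicate 1 (log2 change -0.82, adjusted p = 0.195) and without 65 fL replicate 1, 2 or 3 (adjusted p = 0.0737, 0.0639 and 0.0649). Of 78 small nucleolar RNAs 12 were called lower and 0 higher, with a median of -0.13. The share called lower is below that of all genes and is not read as a fall of the list.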
